A study of Mus musculus with 36 samples.

Results

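Megakaryocyte-erythrocyte progenitors (MEPs) of young and aged mice were compared, 2 libraries at 10 weeks of age against 2 at 20 months, 4 of the 36 libraries of the study. Chromatin accessibility had been measured by ATAC-seq, in which a transposase cuts open DNA and leaves sequencing adapters there, in 8 sorted fractions of the bone marrow of C57BL/6 mice, for which the labels give no further allele or treatment. Each MEP library was made from 20000 cells sorted as lineage-negative, IL-7 receptor-negative, Sca-1-negative, c-Kit-positive, Fcγ receptor-negative and CD34-negative. The methods say that mice bought at 10 weeks were kept for a further 16 to 20 months, and the labels of the aged MEP libraries give 20 months as their age. The study describes marrow that was pooled before the sort and biological duplicates, and the labels do not say whether the duplicates of an age came from separate pools, so p-values measure the spread between libraries, which may be technical.

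MEPs are the bone marrow progenitors from which red cells and platelets arise. Their open chromatin is known to be bound by the erythroid factor GATA1, which works with TAL1, LMO2, ZFPM1 and KLF1 at the genes for red-cell membrane proteins and haem synthesis, and which recognises DNA around the letters GATA. Ageing of the blood system is known for a shift from lymphoid towards myeloid and megakaryocytic output.

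The lists hold peaks, stretches in which reads pile up over the local background, with a fold enrichment (peak height over that background, a ratio) and a q-value for each. The young libraries listed 9581 and 10032 peaks and the aged libraries 9962 and 11041, so aged replicate 2 had the most. The means were 9807 ± 319 (SD, n = 2) and 10502 ± 763 (SD, n = 2), and the difference of 695.0 peaks was within the spread (exact permutation test over the 3 ways to pair 4 libraries, two-sided, p = 0.67; the smallest p that 2 against 2 can give is 1 in 3). Without aged replicate 2 the difference in peak number was 156, and without aged replicate 1 it was 1230. Every list stops at a -log10 q of 3, so a region without a peak in a library is below that limit and not shown to be closed. The 32 libraries of the other fractions listed 27087 to 63288 peaks, so the MEP lists were the shortest of the series.

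Merging of peaks with 1 bp or more in common gave 14449 MEP regions. Of these, 6370 (44.1%) were called in all 4 libraries, 2062 (14.3%) in 3, 2091 (14.5%) in 2 and 3926 (27.2%) in 1. The median fold enrichment was 7.48 in regions called in all 4 libraries and 5.84 in those called in both aged libraries and neither young one.

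The fraction's own chromatin is shown first, because the age comparison rests on it. A total of 281 regions were called in all 4 MEP libraries and in none of the 32 other libraries. Of these, 251 (89.3%) held a GATA match within 100 bp of the summit, against 28.2% of all 14381 MEP regions on assembled chromosomes, and 11 (3.91%) lay at a promoter. A GATA match was the letters GATA with an A or a T just before them and an A or a G just after them, on either strand. The windows of 3 of these regions, 200 bp around the summit, are printed from the plus strand of GRCm38 (mm10) with each GATA match in capitals, as examples of MEP chromatin at genes of the erythroid lineage, chosen after their values were seen. The first lies in an intron of Alas2, the erythroid enzyme that starts haem synthesis, and the others in introns of Sox6, a repressor of embryonic globin, and of Ikzf1, a lymphoid and erythroid regulator.
Alas2, chrX:150549722-150549921: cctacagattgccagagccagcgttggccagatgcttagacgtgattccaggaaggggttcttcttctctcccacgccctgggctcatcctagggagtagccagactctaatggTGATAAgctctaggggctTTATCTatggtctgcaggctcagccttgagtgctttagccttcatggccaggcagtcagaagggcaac
Sox6, chr7:115831015-115831214: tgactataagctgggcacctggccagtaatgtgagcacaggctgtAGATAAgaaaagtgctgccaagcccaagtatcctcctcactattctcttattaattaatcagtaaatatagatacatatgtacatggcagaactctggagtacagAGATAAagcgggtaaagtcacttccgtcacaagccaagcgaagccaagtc
Ikzf1, chr11:11729249-11729448: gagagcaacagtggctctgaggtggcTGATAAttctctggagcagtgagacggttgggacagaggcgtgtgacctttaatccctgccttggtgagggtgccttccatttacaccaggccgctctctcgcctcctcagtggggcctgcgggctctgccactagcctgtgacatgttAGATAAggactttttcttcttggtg
Each of the 3 windows held 2 matches, as did that of such a region in an intron of Alad, while that of a region nearest to Cpox held 1. At the Alas2 region (chrX:150549607-150550076) the fold enrichment was 6.65 and 10.9 in the young libraries and 5.69 and 5.89 in the aged ones. Both aged values were below both young values, and the log2 difference between aged and young was -0.59 ± 0.25 (SE), with an adjusted p of 0.94 in limma. At the Sox6 region (chr7:115830912-115831427) it was 5.73 and 5.67 in young and 7.29 and 8.97 in aged, a log2 difference of 0.48 ± 0.20 without overlap and with an adjusted p of 0.94 in limma. At the Ikzf1 region (chr11:11729042-11729520) it was 5.6 and 7.76 in young and 4.44 and 6.4 in aged, and the ages overlapped.

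Over the 281 regions, the median log2 difference was -0.03, and the middle 90% lay between -0.42 and 0.44. Before adjustment, 21 of them (7.47%) had a p under 0.05, 14 higher and 7 lower in aged MEPs, against 321 of all 6330 regions tested (5.07%), 159 higher and 162 lower, and none passed at an adjusted p of 0.05 (limma). Of all 1770 MEP regions with no call in another fraction, 53 (2.99%) were called in both aged libraries and neither young library, and 47 (2.66%) in both young and neither aged. The share of all MEP regions called in the 2 aged libraries only was 3.13%, and in the 2 young libraries only 1.81%.

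The first question of the comparison was whether any regions opened or closed with age in MEPs. In all, 452 of the 14449 regions were called in both aged libraries and neither young one (aged-only regions) and 262 in both young libraries and neither aged one (young-only regions), 714 together. When the 4 libraries were paired by replicate number instead, 226 regions were called in both libraries numbered 1 and neither numbered 2, and 462 the other way, 688 together. Peak names of both libraries numbered 2 hold the word new, whose meaning is not given. The remaining pairing gave 393 and 296, or 689 together. The count by age was 1.04 times the mean of the other pairings (exact permutation test over the 3 ways to pair the libraries, p = 0.33, the smallest it can give). Without young replicate 1 or 2 it was 0.923 and 0.926 times that mean. The surplus of aged-only over young-only regions did not hold under every setting. With the same number of peaks taken from each library, 336 regions were aged-only and 345 young-only. Without young replicate 1, with 1 call needed from young replicate 2, the surplus was -161, that is, young-only regions were more numerous. The age pairing thus gave about as many regions as the pairings that mix the ages.

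**Figure D1:**
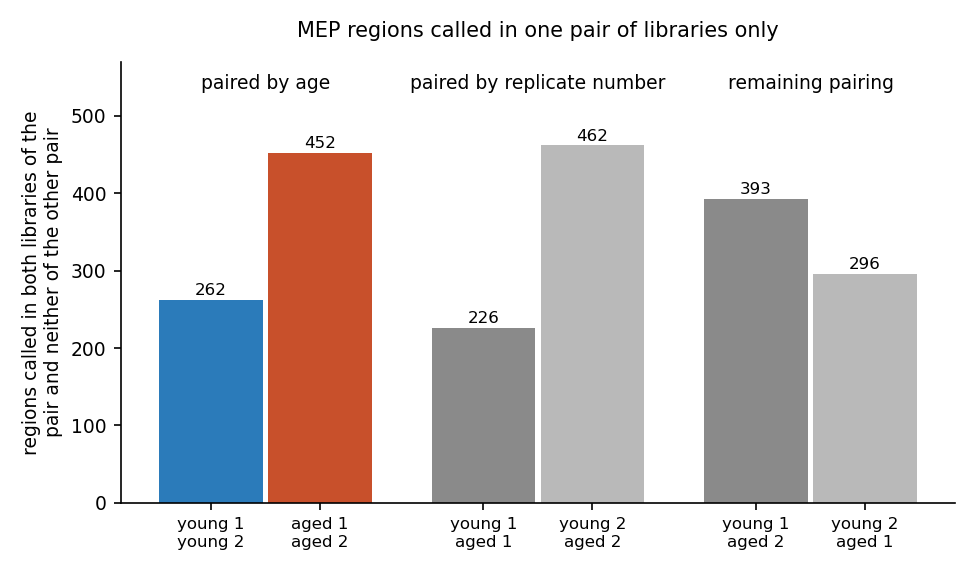
Number of MEP regions called in both libraries of a pair and in neither of the other pair (vertical axis), for the 3 ways to pair the 4 libraries; the numbers under the bars are replicate numbers. The 2 bars by age add up to 714 regions, and the bars of the other pairings to 688 and 689.

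The overlap of the peak lists was compared next. The Jaccard index, the bases covered in both libraries over those covered in either, was 0.5305 between the young libraries and 0.5344 between the aged ones. Between a young and an aged library it ran from 0.5247 to 0.5369, so that the most alike pair, young replicate 2 and aged replicate 2, was of different age. These are the libraries whose peak names hold the word new, and each had the longer peak list of its age. Whether either bears on their overlap was not tested. The mean was 0.5324 within an age and 0.5306 between ages, a difference of 0.00178 (exact permutation test over the 3 pairings, p = 0.33, the smallest it can give). Without aged replicate 1 that difference was -0.00292.

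The 10 aged-only and 10 young-only regions with the highest rank of fold enrichment in the weaker library were looked at one by one. Their calls chose them, so their values are a description. The strongest aged-only region lay in an exon of Prim1, the small subunit of DNA primase, 133 bp from its start, at chr10:128015183-128015428, with a fold enrichment of 8.74 and 8.7 in the aged libraries. Promoters made up 6 of the 10. They were those of Fntb, a farnesyltransferase subunit (10.3 and 8.62), Ankef1 (8.95 and 8.1), Lsm12 (11.2 and 7.7), Rps19bp1 (7.73 and 7.7), the zinc-finger gene model Gm14435 (7.73 and 7.74) and Ttll7, a tubulin-modifying enzyme (7.73 and 8.18). The promoter regions of Fntb, Ankef1, Gm14435 and Ttll7 were called in all 32 libraries of the other fractions, young ones included, and those of Lsm12 and Rps19bp1 in 30 and 31. These promoters were thus listed in nearly all other fractions at both ages and missing from the 2 young MEP lists. In contrast, the region 15598 bp from the start of Nup160, a nuclear pore gene, was called in 5 of the 32 other libraries, the 4 of granulocyte-macrophage progenitors (GMPs) and 1 of the multipotent fraction MPP2 (7.83 and 8.09 in aged MEPs), and that 145251 bp from Rab11fip4 in 2 (8.23 and 7.74). The remaining region, in an intron of Srgap1 and nearest to BC048403, was called in all 32 (7.5 and 7.69).

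Among these 10 young-only regions, 3 were called in no other library of the series, as were 17.9% of all young-only regions, 17.9% of the 1377 regions that 2 libraries called in a pattern other than age, and 1770 of all 14449 MEP regions. The 3 lay in an intron of Slc25a42, a mitochondrial carrier of coenzyme A (chr8:70201469-70201684, fold enrichment 8.2 and 8.17 in the young libraries), in an intron of Chst15, a chondroitin sulfotransferase (chr7:132261913-132262282, 7.75 and 7.29), and 91604 bp from Lrig2 (chr3:104420099-104420349, 7.42 and 8.95). The promoters of Emsy, a transcriptional repressor (8.13 and 10.9), Ulk4 (8.04 and 7.62) and Nbdy, whose small protein binds the mRNA decapping complex (7.6 and 8.2), were called in 32, 31 and 30 of the 32 other libraries. The region nearest to Klf4, a Krüppel-like factor gene, was called in all 32 (7.47 and 9.48), those nearest to Sfpq, a splicing factor gene (11.1 and 8.62), and within Fbp2 (8.43 and 10.1) in 29 and 31, and that within Ccdc14 in 9 (8.0 and 10.0). Of all MEP regions, 54.9% were called in all 32 other libraries.

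**Figure D2:**
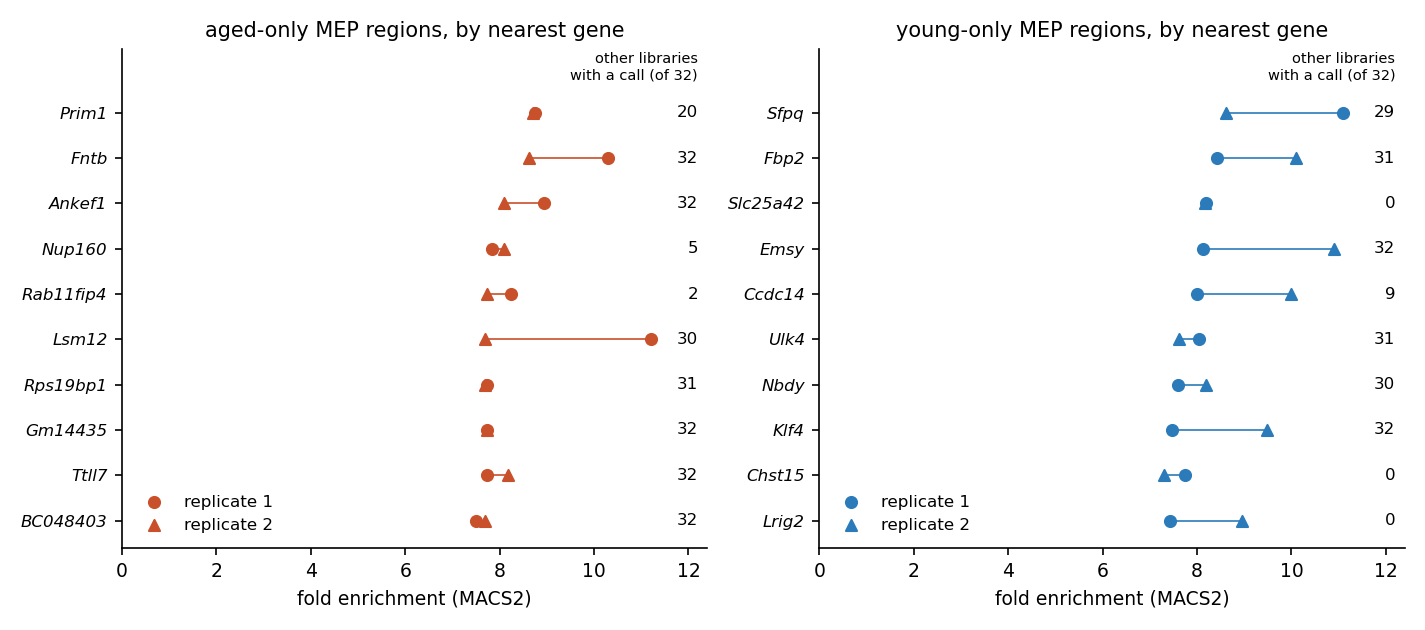
Fold enrichment in the 2 libraries that called the region (horizontal axis; circle, replicate 1; triangle, replicate 2) for the 10 aged-only regions on the left and the 10 young-only regions on the right, by nearest gene. The number at the right edge of each row is the number of the 32 other libraries with a call, 0 for Slc25a42, Chst15 and Lrig2.

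The summit windows of the 5 named one-age regions with a call in at most 5 of the other libraries are printed, since these are the ones least shared with the other fractions (200 bp, GRCm38, plus strand, GATA matches in capitals). The first 2 were aged-only and the other 3 young-only.
near Nup160, chr2:90661523-90661722: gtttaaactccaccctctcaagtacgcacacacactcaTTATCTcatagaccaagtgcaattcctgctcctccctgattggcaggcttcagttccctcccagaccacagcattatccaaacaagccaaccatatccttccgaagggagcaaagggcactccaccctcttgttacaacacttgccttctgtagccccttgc
near Rab11fip4, chr11:79736375-79736574: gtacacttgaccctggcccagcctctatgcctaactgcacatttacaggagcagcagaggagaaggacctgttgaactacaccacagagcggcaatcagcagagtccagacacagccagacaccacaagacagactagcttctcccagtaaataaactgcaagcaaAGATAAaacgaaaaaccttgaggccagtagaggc
Slc25a42, chr8:70201472-70201671: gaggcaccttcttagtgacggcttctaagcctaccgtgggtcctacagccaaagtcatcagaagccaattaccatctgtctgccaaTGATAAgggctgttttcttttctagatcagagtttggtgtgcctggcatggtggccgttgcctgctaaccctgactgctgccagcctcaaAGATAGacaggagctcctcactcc
Chst15, chr7:132262037-132262236: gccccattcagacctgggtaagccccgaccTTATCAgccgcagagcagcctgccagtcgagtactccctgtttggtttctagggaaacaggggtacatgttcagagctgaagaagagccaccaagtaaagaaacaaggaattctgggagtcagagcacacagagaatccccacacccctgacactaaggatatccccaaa
near Lrig2, chr3:104420127-104420326: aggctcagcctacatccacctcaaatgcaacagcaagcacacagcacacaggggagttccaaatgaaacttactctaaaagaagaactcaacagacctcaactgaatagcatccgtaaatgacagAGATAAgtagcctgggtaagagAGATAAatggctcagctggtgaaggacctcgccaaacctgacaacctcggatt
Each of the 5 held a GATA match, and so did 28.2% of all MEP windows and 35% of those of the 1377 regions called in another pattern. The windows of the 5 other named regions outside exons and promoters, those of Srgap1, Sfpq, Fbp2, Ccdc14 and Klf4, with calls in 9 to 32 other libraries, held none. The limit on calls was set after the values were seen and no test was made, and of the 281 regions called in all 4 MEP libraries and no other, which are of neither age, 89.3% held a match.

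As a set, the one-age regions were set beside the 1377 regions that 2 of the 4 libraries called in a pattern other than age, taken here as controls. Calls in all 32 other libraries were found for 42.0% of aged-only regions, 34.4% of young-only regions and 33.4% of controls, and calls in none for 11.7%, 17.9% and 17.9%. No test was made of these shares. Promoters made up 40.3% of aged-only regions (95% exact binomial interval 35.7 to 44.9, for counting error only), 42.0% of young-only regions (35.9 to 48.2) and 38.5% of controls (35.9 to 41.1), against 67.0% of regions called in all 4 libraries. Promoters were taken as the 1000 bp before a transcription start and the 100 bp after it. Their median widths were 316.5, 314 and 311 bp, and 533 bp for regions called in all 4. The median -log10 q of their peaks was 7.23, 6.8 and 7.16, against 13.7, and in 11.1%, 13.4% and 13.3% of them a called peak had a -log10 q of at most 4, close to the limit of 3.

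A GATA match lay in 33.5% of aged-only windows (29.1 to 38), 35.6% of young-only windows (29.8 to 41.8) and 35% of control windows (32.5 to 37.6), against 19.5% of windows called in all 4 libraries. The RUNX letters TGTGGTT were in 9.09% of aged-only, 4.98% of young-only and 6.25% of control windows, and in 5.1% of all MEP windows. The ETS letters ACCGGAAG, GCCGGAAG or CAGGAAGT were in 7.98%, 8.81% and 6.4%, and in 7.45% of all. The KLF letters CCNCACCC were in 12.6%, 9.96% and 10.5%, and in 12.5% of all. E-box letters (CAGCTG or CAGATG) were in 21.5%, 23.8% and 23.4%, and AP-1 letters (TGANTCA) in 4.66%, 4.6% and 4.95%, while all MEP windows held them in 20.9% and 4.01%. All letters were searched on both strands, and no test was made of these shares. The intervals of both one-age shares of GATA matches included the control share.

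The second question was whether accessibility at shared regions shifted with age. It was tested with limma on the log2 fold enrichment of the 6330 regions called in all 4 libraries that lie on assembled chromosomes, after quantile normalisation, which leaves only the order of regions within a library. At an adjusted p of 0.05 no region was higher in aged MEPs (0.0% of those tested) and none lower (0.0%), and the smallest adjusted p was 0.94. An unadjusted p under 0.05 was found in 321 regions (5.07%), 159 higher and 162 lower, and bins of 0.05 over the whole range of p held 276 to 349 regions each. The log2 difference lay between -0.39 and 0.39 for 90% of the regions, with a median SE of 0.21 and a median SD between the libraries of an age of 0.19. The median absolute log2 difference between single libraries was 0.21 for each pair of the same age and 0.21 or 0.22 for pairs of different age. Spearman's rho of fold enrichment across these regions, which are not independent, was 0.612 and 0.631 within the young and the aged pair and 0.604 to 0.639 between ages.

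**Figure D3:**
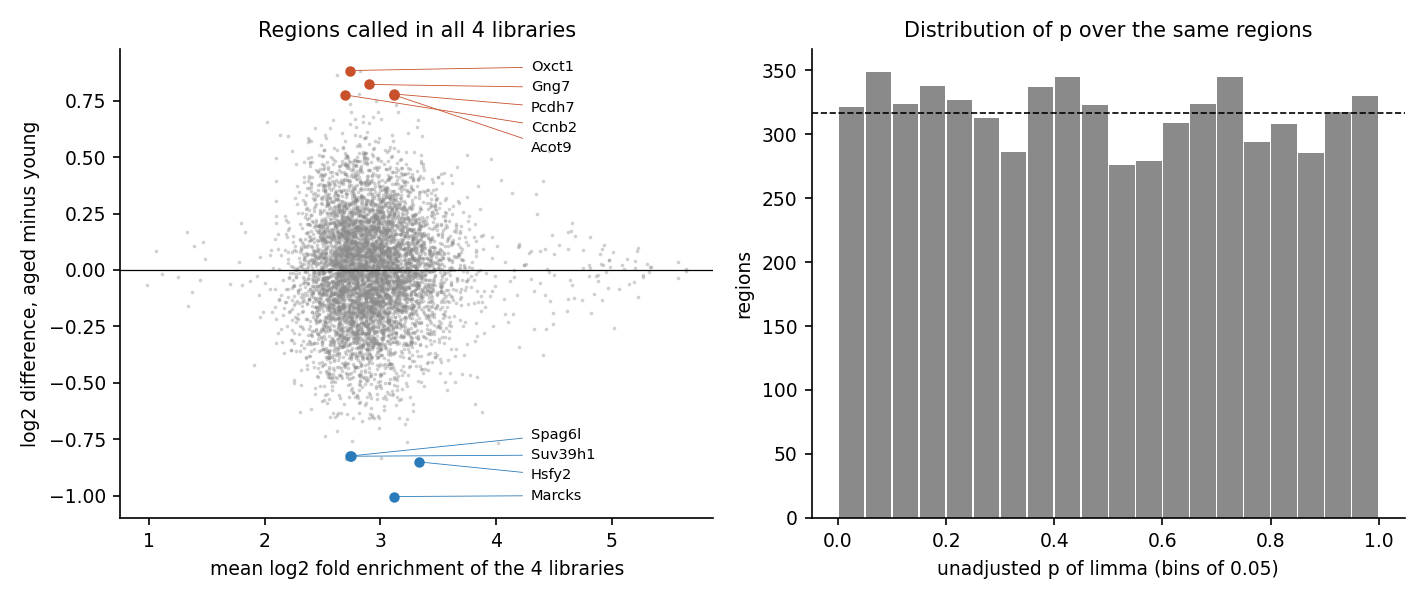
Left, log2 difference in fold enrichment between aged and young MEPs (vertical axis) against the mean log2 fold enrichment of the 4 libraries (horizontal axis) for 6330 regions, with regions of smallest p in each direction named by nearest gene. Right, number of regions per bin of unadjusted p, with the mean as a dashed line; bins hold 276 to 349 regions and the lowest bin 321.

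The regions of smallest p in each direction were separated between the ages without overlap, as their choice by p makes likely. The promoter region of Oxct1, an enzyme of ketone body use, had a fold enrichment of 4.67 and 5.09 in young and 8.94 and 9.41 in aged MEPs, a log2 difference of 0.88 ± 0.19 (SE). That of Gng7, a G-protein subunit, had 5.37 and 5.74 in young and 9.43 and 10.6 in aged. That of Ccnb2, cyclin B2 of the G2/M transition, had 5.07 and 4.76 in young and 8.8 and 8.31 in aged. The promoter of Acot9, a mitochondrial thioesterase (7.01 and 6.21, then 11.8 and 11.1), and an intronic region of Pcdh7, a protocadherin gene (6.93 and 6.21, then 11.1 and 11.7), had a log2 difference of 0.78 each. All of these were higher in both aged libraries than in both young ones, and the adjusted p of each was 0.94 in limma.

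In the other direction, the promoter region of Suv39h1, a histone H3 lysine methyltransferase, had a fold enrichment of 9.3 and 8.39 in young and 5.07 and 5.03 in aged MEPs, a log2 difference of -0.83 ± 0.19. That of Spag6l, an axoneme gene, had 9.16 and 8.46 in young and 4.99 and 5.09 in aged. Far from any start site, the region nearest to Marcks, 681565 bp away, had 12.8 and 11.6 in young and 5.27 and 7.3 in aged, a log2 difference of -1.0 ± 0.21, and that nearest to Hsfy2, 144908 bp away, had 12.3 and 15.3 and then 8.43 and 6.78. These were lower in both aged libraries, again with an adjusted p of 0.94 in limma. The promoters of Oxct1, Gng7, Acot9, Spag6l and Suv39h1 were called in all 32 libraries of the other fractions.

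Gene lists for the lineages that MEPs give rise to, and for cells that the sort should exclude, were read next. Of 21840 protein-coding genes, 8730 had a promoter region in any MEP library and 5439 (24.9%) in all 4. For granulocyte-macrophage genes (such as Mpo, Elane and Csf1r) 0 of 16 promoters were called in any MEP library, and for mast cell and basophil genes 0 of 9. Of 16 lymphoid promoters 0 were called in all 4 libraries and 2 in some (Gata3 in 3 libraries and Ebf1 in 1), and of 14 stem cell promoters 1 was called in all 4. Some MEP regions did have such genes as the nearest. Of the 8 nearest to granulocyte-macrophage genes, 6 (75.0%) were called in all 4 libraries. So were 6 of the 11 nearest to stem cell genes (54.5%, 1 promoter among them), against 44.1% of all MEP regions. The granulocyte-macrophage ones lay 5173 to 33480 bp from the starts of Cebpe, Fcgr3, Gfi1 and Ly6c2, and their median log2 difference between aged and young was -0.04. Those of Cebpe, Gfi1 and Ly6c2 were called in 29 to 32 of the 32 other libraries, and those of Fcgr3 in 7 to 32. Nearness to a gene does not show that a region acts on it. For erythroid genes 6 of 24 were called in all 4, among them Tfrc, Car2, Trim10 and Blvrb, and 15 in at least 1 library. That of Trim10 was called in none of the 32 other libraries, while those of Tfrc, Car2 and Blvrb were called in all 32. The promoters of Gata1, Klf1, Epor, Gfi1b, Nfe2, Alas2, Itga2b and Il7r were called in no MEP library, so that several genes that define the fraction had no listed promoter peak at either age. The globin genes Hba-a1 and Hbb-bt also had none, and their near-identical copies can share or lose reads. Megakaryocytic promoters were called in all 4 libraries in 0 of 22 genes, and in some libraries for Gp1ba, Pf4 and Rab27b.

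Of the 156 genes of all lists, 65 had a promoter region in any MEP library, and among these 1 was aged-only and 1 young-only. Of the 8730 genes with a promoter region, 219 (2.51%) were aged-only and 114 (1.31%) young-only. The young-only promoter was that of Epb42, which codes for a red-cell membrane skeleton protein (chr2:121036680-121037028). It had a fold enrichment of 4.29 and 6.41 in the young libraries, with a -log10 q of 3.02 in young replicate 1, at the edge of the list, and 8 young but 3 aged libraries of the other fractions listed it. The aged-only promoter was that of Myb, a regulator of progenitor proliferation (chr10:21160867-21161245), with 6.64 and 4.73 in the aged libraries and calls in 12 young and 13 aged libraries of the other fractions. With only peaks of a -log10 q of at least 10 kept, neither was of one age and 3 other promoters, those of Tfrc, Icam4 and Fech, were aged-only. At that limit aged-only regions were also more numerous among all MEP regions, 349 against 172 young-only.

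The 250 bases upstream of the RefSeq start (GRCm38.p6) are printed in the direction of transcription for these promoters and for that of Trim10, an erythroid gene called in all 4 MEP libraries alone, with GATA matches in capitals. Of 32851 RefSeq promoters, 26.5% held a GATA match in the same 250 bases.
Epb42, chr2:121036878-121037127, minus strand: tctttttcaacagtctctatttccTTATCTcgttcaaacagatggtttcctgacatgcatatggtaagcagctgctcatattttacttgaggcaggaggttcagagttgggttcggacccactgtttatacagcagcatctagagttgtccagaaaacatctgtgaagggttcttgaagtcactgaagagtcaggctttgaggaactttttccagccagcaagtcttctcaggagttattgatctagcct
Myb, chr10:21160985-21161234, minus strand: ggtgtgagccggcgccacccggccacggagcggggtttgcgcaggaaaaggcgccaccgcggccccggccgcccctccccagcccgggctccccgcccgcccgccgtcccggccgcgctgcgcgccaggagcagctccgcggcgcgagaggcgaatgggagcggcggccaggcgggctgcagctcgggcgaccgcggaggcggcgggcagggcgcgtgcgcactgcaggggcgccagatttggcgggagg
Trim10, chr17:36869324-36869573, plus strand: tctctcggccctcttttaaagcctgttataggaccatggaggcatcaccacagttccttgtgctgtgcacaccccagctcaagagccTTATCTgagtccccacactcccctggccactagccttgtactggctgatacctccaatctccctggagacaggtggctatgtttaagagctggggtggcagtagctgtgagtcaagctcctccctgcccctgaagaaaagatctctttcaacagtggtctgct
The stretches of Epb42 and Trim10 held 1 match each and that of Myb none. At Trim10 the fold enrichment was 6.57 and 6.66 in young and 5.33 and 5.09 in aged MEPs, both aged values being lower, with a log2 difference of -0.37 ± 0.19 (SE) and an adjusted p of 0.94 in limma.

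Among the other erythroid regions called in all 4 libraries, the promoter of Tfrc, the transferrin receptor that brings iron into the cell, had a fold enrichment of 7.01 and 5.63 in young and 6.86 and 7.2 in aged (log2 difference 0.14 ± 0.20). The promoter of Blvrb, a biliverdin reductase, had 8.82 and 7.0 and then 8.65 and 9.48 (0.18 ± 0.20), and an intronic region of Epor, the erythropoietin receptor, had 5.8 and 5.77 and then 7.13 and 6.15 (0.17 ± 0.20). The median over 11 erythroid regions was 0.08, with values from -0.59 to 0.48, against a median of 0.0024 over all 6330 regions. Of these 11, 2 had an unadjusted p under 0.05, those of Alas2 (-0.59) and Sox6 (0.48) with opposite signs, against 5.07% of all regions, and for no list did a region pass at an adjusted p of 0.05 (limma, smallest 0.94).

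Among the transcription factor genes, promoter regions of Zfpm1, the GATA1 cofactor FOG1 (6.56 and 7.1 in young, 8.65 and 7.49 in aged), and of Klf3, a repressor of the Krüppel family (7.46 and 7.1, then 8.52 and 8.68), had a log2 difference of 0.21 each. The region at the start of Tal1, a partner of GATA1, had 5.57 and 4.33 in young and 4.89 and 4.22 in aged (-0.13 ± 0.21), and one 3117 bp from Nfe2, a megakaryocytic and erythroid factor, had 7.62 and 6.78, then 7.89 and 7.65 (0.09 ± 0.19). A promoter region of Lmo2, which bridges TAL1 and GATA1, lay 899 bp from the start of the gene. This region was called in 3 MEP libraries and in no other library of the series (3.72 in young replicate 2, 5.61 and 7.06 in aged). Peaks that other libraries may have outside MEP regions, as at that start, were not looked up. The median over 15 regions was -0.05, from -0.33 to 0.25, and 0 had an unadjusted p under 0.05. Beyond promoters, a region in an intron of Kit, the stem cell factor receptor, was aged-only (6.94 and 5.52, chr5:75624216-75624649), as was one 28695 bp from Ikzf1 (5.26 and 4.96), while regions nearest to Gab1, Fcgr3 and Hlf were young-only.

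In haem synthesis and iron handling, 7 of 20 promoters were called in all 4 libraries (24.9% over all protein-coding genes). Those of Cpox (8.91 and 9.43 in young, 9.05 and 8.38 in aged) and Ppox (10.2 and 9.17, then 8.52 and 11.2), enzymes of the last steps of the pathway, had log2 differences of -0.10 ± 0.19 and -0.01 ± 0.21. The promoter of Uros, an earlier enzyme, had 8.62 and 6.94 and then 5.9 and 7.65 (-0.23 ± 0.21), and an intronic region of Alad had 4.88 and 6.98 and then 5.19 and 4.24 (-0.33 ± 0.23). The promoters of Cpox, Ppox and Uros were called in all 32 libraries of the other fractions. A region in the ferroportin promoter, 973 bp from the start of Slc40a1, was called in 3 MEP libraries (7.37 and 5.7 in young, 6.55 in aged replicate 1). It was called in 1 of the 32 others, in which peaks outside MEP regions were not looked up. A region in an intron of Fech, the enzyme that inserts iron into haem, was young-only (4.21 and 6.46) and was called in no other library of the series. Over 12 regions of this list the median was 0.0, from -0.59 to 0.14.

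Erythropoietin and thrombopoietin signalling had 10 of 21 promoters called in all 4 libraries (47.6%, against 24.9% of all protein-coding genes), and the difference was not tested. The kinase gene Jak2 had a fold enrichment of 5.75 and 7.36 in young and 7.74 and 7.62 in aged MEPs (log2 difference 0.21 ± 0.21), Stat5a had 7.57 and 6.95 and then 8.71 and 6.87 (0.06 ± 0.21), and Stat3 had 9.21 and 9.97 and then 9.48 and 9.5 (-0.04 ± 0.19). Pim1, a survival kinase and STAT5 target, had 4.83 and 4.2 and then 6.56 and 5.62, higher in both aged libraries (0.41 ± 0.20), and Bcl2l1, which codes for the survival protein BCL-XL, had 8.52 and 8.58 and then 7.21 and 6.57, lower in both (-0.34 ± 0.19). Both had an adjusted p of 0.94 in limma. The median over 12 regions was 0.11, from -0.34 to 0.41. Megakaryocytic genes had 3 such regions, in introns of Vwf (4.91 and 4.61 in young, 5.16 and 7.01 in aged, 0.32 ± 0.21) and Cd9 (9.64 and 7.46, then 5.22 and 8.02, -0.42 ± 0.24) and near Gp9 (0.11 ± 0.25).

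**Figure D4:**
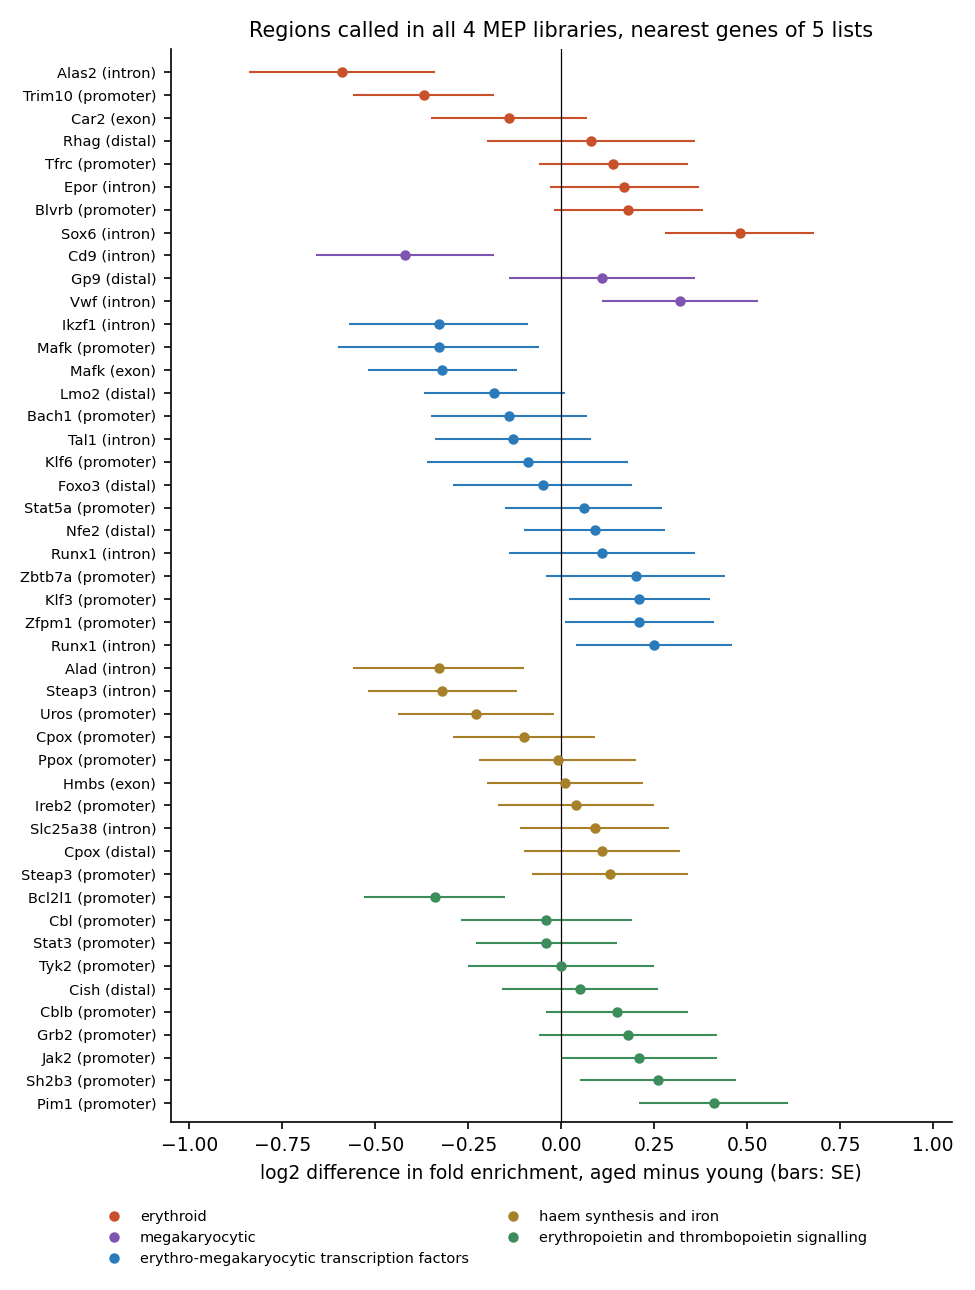
Log2 difference in fold enrichment between aged and young MEPs (horizontal axis; point, estimate; bar, SE of limma) for the regions called in all 4 libraries whose nearest gene is on 1 of 5 lists, colored by list; a few are not shown. The estimates lie on both sides of 0, from -0.59 for Alas2 to 0.48 for Sox6.

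The 32 libraries of the other fractions had no part in choosing these regions. Whether the same regions differed by age there was tested against the control regions with the ages permuted within fractions (100000 resamples, two-sided). Aged-only regions were called in 67.7% ± 1.08 of cases in aged hematopoietic stem cells (HSCs; SD, n = 4) and 70.4% ± 2.5 in young HSCs, and control regions in 59.9% and 64.0%. Over the 7 fractions, the difference between aged and young in the share of aged-only regions was 0.0841 percentage points above that of controls (permutation p = 0.828), and -0.259 without aged MEP replicate 1. For young-only regions it was -0.846 points (permutation p = 0.205). For shared regions, the 200 of smallest p higher in aged MEPs were set against the 200 lower. Within a fraction, 166 to 177 of the higher and 167 to 179 of the lower regions entered. The percentile of fold enrichment moved by 0.399 points (permutation p = 0.258). The sign of this last value was not stable, since it was -0.3 without young MEP replicate 1, -0.148 without aged replicate 1, -0.129 without aged replicate 2 and 0.842 without young replicate 2. Adjusted over these 3 tests, p was 0.828, 0.387 and 0.387. The share of aged-only regions called was above that of controls in each of the 7 fractions at both ages, which was not tested, in young common lymphoid progenitors (CLPs) for example in 69.9% ± 0.626 (SD, n = 2) against 60.3%.

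The young-only value depended on the processing and on single MEP libraries. It was -0.148 points without young MEP replicate 1, -0.0842 without young MEP replicate 2 and -0.3 without aged MEP replicate 1. With the same number of peaks per library it was -1.56 points (permutation p = 0.00571), and without aged MEP replicate 2 it was -0.811 (permutation p = 0.0484), while the remaining alternatives gave an unadjusted p above 0.05. By fraction it ran from -3.73 points in the multipotent progenitor fraction MPP3 (72.9% ± 0.0 in young, 66.4% ± 1.62 in aged; SD, n = 2) to 2.62 points in HSCs (64.9% ± 4.42 in young, 63.5% ± 1.18 in aged; SD, n = 4).

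**Figure D5:**
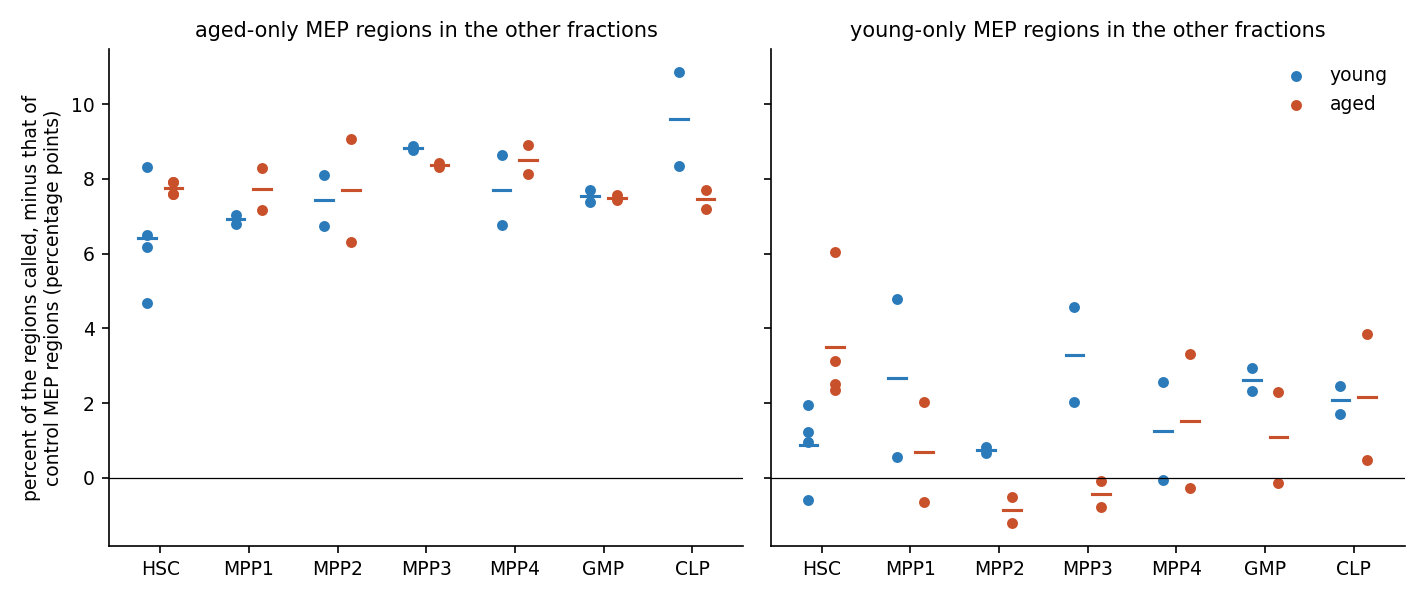
Percent of aged-only (left) and young-only (right) MEP regions called in each library of the 7 other fractions, minus that of control regions in the same library (vertical axis, percentage points; point, library; bar, mean; blue, young; red, aged). Aged-only regions lie above 0 in every library at both ages, and the ages differ in both directions among the fractions.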

How the data were processed

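ATAC-seq libraries (60 bp single reads, fragments of 240 to 360 bp) were aligned by the authors with Bowtie2 to mm10, filtered with SAMtools and subsampled to the same number of reads, and peaks were called per library with MACS2 2.2.6 at a q-value limit of 0.001. For each summit, the deposited lists give a whole-number score, which was not used, a fold enrichment (a ratio), and the p-value and q-value as -log10. They hold no reads, so the count model of the study was not run and read depth was not analysed here.

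Here the strongest summit stood for a peak, peaks overlapping by 1 bp were merged, and calls, fold enrichment and GATA or other letters within 100 bp of the median summit were recorded, with GENCODE M21 protein-coding transcripts on GRCm38. Fold enrichment was tested with limma 3.58.1 (R 4.3.3; log2 scale, quantile normalisation, Benjamini-Hochberg over 6330 regions), checked on simulated data. Regions were named by rule: the 10 one-age regions per age with the highest lowest-library percentile of fold enrichment, the 5 of smallest limma p per direction, list promoters of one age and a fixed set of lineage genes. Some regions that these rules name are not reported here. Members and lists were chosen with earlier results of these data known. Alternatives were a stricter q-value, equal peak numbers, 50% cover, 36-library regions, other normalisations, GC correction, a replicate block, another promoter window and leaving out libraries or fractions.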

Additional observations from a re-analysis of the deposited data

Results flagged for a closer look

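In some fractions every aged library lay above every young library in the share of MEP one-age regions called, over that of control regions, and in others every aged library lay below. For aged-only regions the difference between aged and young was 0.82 percentage points in MPP1, -0.448 in MPP3 and -2.15 in CLPs. For young-only regions it was 2.62 points in HSCs (4 libraries an age), -1.61 in MPP2, -3.73 in MPP3 and -1.54 in GMPs, the granulocyte-macrophage progenitors. Both sets were looked at in all 7 fractions. Fractions other than HSCs had 2 libraries an age, and without any change 2 against 2 separate fully in 1 in 3 cases. The difference between fractions was not tested.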

How the results depend on the processing

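Regions called at one age only were 1.04 to 1.11 times the mean of the other pairings over the alternatives with 4 libraries, and 0.923 to 1.15 times when a library was left out, fewer than in the other pairings without young replicate 1 or 2; the count was then 2109 to 2398, because 1 call sufficed for the age left with 1 library. The surplus of aged-only regions was -9 with equal peak numbers and ranged from -161 to 1282 without 1 library. Without 1 library, the difference in peak number was 156 to 1230 and that in the Jaccard index -0.00292 to 0.0071. Under each alternative 0 shared regions passed in limma (smallest adjusted p from 0.0603 to 0.994, unadjusted p under 0.05 in 133 to 424 regions); without 1 library, the lone library of an age is assumed to vary like the others. The labels do not say what a shared replicate number stands for, and same-numbered libraries barely deviated together (r = 0.0299 across regions); with the replicate block 0 regions passed, 390 had an unadjusted p under 0.05, and the smallest adjusted p was 0.0603.

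In the other fractions, the aged-only value was -0.41 points at the stricter q-value, -0.125 without HSCs, -0.0386 without MPP1, -0.0372 without MPP4, 0.458 with equal peak numbers, 0.558 with 50% cover, 0.457 without CLPs and -0.259 to 0.401 without 1 library. The young-only value was -1.56 with equal peak numbers, -1.42 without HSCs (permutation p = 0.0505), -0.343 with 50% cover, -0.365 without MPP3 and -1.15 to -0.0842 without 1 library. The shared-region value was -0.3 to 0.842 without 1 library. The replicate block left these values as they were, with permutation p of 0.836, 0.222 and 0.282. At the stricter q-value, promoters made up 59.3% of aged-only and 66.9% of young-only regions, GATA letters lay in 27.8% and 23.3%, control regions moved the same way (60.2% and 25.1%), and 13 in place of 31 list promoters were called in all 4 libraries; with 500 bp on each side of a start, 48.0% of aged-only regions were promoters. The cause of these shifts was not tested. Peak lists cut at a q-value limit what can be seen of weak regions, and 2 libraries an age cannot give an exact p under 1 in 3.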
